A study of Mus musculus with 2 samples.

Results

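Fibroblasts that express Saa3 were chosen from both libraries as barcodes with at least 500 genes, at most 10% mitochondrial UMIs, at least 2 Saa3 UMIs, at least 10 UMIs of Col1a1, Col1a2 and Col3a1 together and 0 UMIs of Ptprc, the gene of CD45. A UMI is a molecular tag that counts 1 captured transcript, and levels are given in CPM, the UMIs of a gene as a share of all UMIs summed over a group of cells, scaled to a fixed total. The rule found 193 cells among 19463 kept barcodes, of 20007 deposited. They were 183 of 5877 collagen-positive cells in the Il10ra ff; Pdgfra-cre library and 10 of 9018 in the Il10ra ff library. Because Saa3 counts chose the cells, their Saa3 level is a description and supports nothing else.

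Both libraries came from whole colons of mice aged 6 months, with 2 mice named for each genotype. All mice carried floxed alleles of Il10ra, the ligand-binding chain of the interleukin-10 receptor. The mice of the second group, called Cre below, also carried a Pdgfra-cre transgene, which directs recombination to cells with an active Pdgfra promoter, a promoter that is active in most fibroblasts. Living cells had been sorted for Podoplanin and against CD45, CD31 and EpCAM, which removes most leukocytes, endothelium and epithelium, and were read with a 10x Genomics 5′ kit. The title of the series places the comparison in the question of how IL-10 signalling in fibroblasts restrains interferon signalling and pathology of the large intestine. Each genotype gave 1 library, its mice cannot be told apart in it, and no test between genotypes or between groups of cells was possible. Intervals in parentheses are 95% intervals for counting error only, and they leave out differences between mice.

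Saa3 encodes serum amyloid A3, a secreted lipid-binding protein of the acute phase response that is made outside the liver. In stromal and epithelial cells, acute phase genes and neutrophil chemokines are classically induced by IL-1, TNF, IL-17 and microbial products through NF-kappaB and C/EBP factors. IL-6 family cytokines act on many of the same genes through STAT3, and interferons act on chemokine and antigen presentation genes. In the colon, fibroblasts of the lamina propria express Adamdec1, and adventitial fibroblasts around vessels and in the submucosa express Pi16.

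The promoters of Saa3 and of 3 genes whose levels stood out in these cells are shown because the genes fell on different sides of the comparisons that follow: Lcn2 with Saa3 both in cells with Adamdec1 and in cells with Pi16, Lrg1 mainly in cells with Pi16, and Cxcl9 mainly in cells with Adamdec1. Each line gives the 250 bases before the RefSeq start site in build GRCm38.p6, all on the minus strand, at chr7:46715677-46715926, chr2:32387740-32387989, chr17:56121947-56122196 and chr5:92328080-92328329 in that order. Capitals mark a match, on either strand, to the NF-kappaB motif (GGG, any 3 bases, TTCC), the C/EBP motif (TTGC, any 2 bases, AA), the STAT motif (TTC, any 3 bases, GAA) or the interferon-stimulated response element, ISRE (TTTC, any 2 bases, TTTC).
Saa3: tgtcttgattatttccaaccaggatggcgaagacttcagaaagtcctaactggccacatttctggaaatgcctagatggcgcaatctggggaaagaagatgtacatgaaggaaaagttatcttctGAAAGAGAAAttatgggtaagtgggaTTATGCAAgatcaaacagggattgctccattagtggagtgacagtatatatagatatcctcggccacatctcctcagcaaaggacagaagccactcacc
Lcn2: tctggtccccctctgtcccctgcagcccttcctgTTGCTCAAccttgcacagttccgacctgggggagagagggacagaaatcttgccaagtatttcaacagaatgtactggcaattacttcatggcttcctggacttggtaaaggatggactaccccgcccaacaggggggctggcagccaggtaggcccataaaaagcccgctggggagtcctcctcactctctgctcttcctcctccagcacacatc
Lrg1: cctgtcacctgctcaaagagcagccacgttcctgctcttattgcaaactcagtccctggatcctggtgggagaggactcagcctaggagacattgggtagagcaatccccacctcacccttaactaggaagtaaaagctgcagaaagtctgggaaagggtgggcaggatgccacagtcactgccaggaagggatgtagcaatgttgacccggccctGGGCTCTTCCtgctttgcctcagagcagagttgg
Cxcl9: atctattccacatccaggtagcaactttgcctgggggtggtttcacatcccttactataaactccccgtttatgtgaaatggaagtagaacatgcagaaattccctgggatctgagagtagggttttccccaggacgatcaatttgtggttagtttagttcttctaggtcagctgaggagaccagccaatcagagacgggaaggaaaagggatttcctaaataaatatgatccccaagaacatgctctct

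The Saa3 promoter held 1 ISRE match and 1 C/EBP match, starting 125 and 99 bases before the start site. The Lcn2 promoter held 1 C/EBP match and the Lrg1 promoter 1 NF-kappaB match, whereas the Cxcl9 promoter held none of the 4 motifs. Over all 32851 promoter windows of this length, 2.98% held an ISRE match, 9.56% a C/EBP match, 4.65% an NF-kappaB match and 7.02% a STAT match. Of the 11 genes made up of Saa3 and the 10 highest genes named below, 7 had an entry, and Hp, Cxcl5, Csf3 and Chrdl2 had none. The Cxcl2 promoter held 3 NF-kappaB matches, of which 2 overlapped as the same site read on both strands. A match describes the letters in the window and shows neither binding nor a cause.

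Cells with Saa3 made up 3.11% of collagen-positive cells in the Cre library (2.68 to 3.59%) and 0.111% in the control library (0.0532 to 0.204%). A further 77 cells of the Cre library and 1 of the control library had exactly 1 Saa3 UMI and lay just outside the rule, and 10 of the 183 cells had exactly 2 UMIs and lay just inside it. Saa3 ranged from 2 to 463 UMIs per cell in the Cre library, with a median of 16 and an interquartile range of 6 to 47.5. The signal was unevenly spread: 25 cells had 100 or more UMIs, and the 10 highest cells held 34.0% of the Saa3 UMIs of the group. The rule captured 97.2% of the Saa3 UMIs of all kept cells in that library. Summed over all collagen-positive cells, Saa3 reached 148 CPM in the Cre library and 3.29 in the control library. The other sorted cell types give a measure of free RNA. Saa3 had 0 UMIs in 154 smooth muscle cells of the Cre library, in 95 glial cells and in 41 lymphatic endothelial cells, each chosen by at least 5 UMIs of that type's markers and under 10 collagen UMIs, which allows shares of up to 1.95%, 3.16% and 7.32% of cells. Their median depths were 5256, 5284 and 2315 UMIs, against 11324 in the cells with Saa3.

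**Figure D1:**
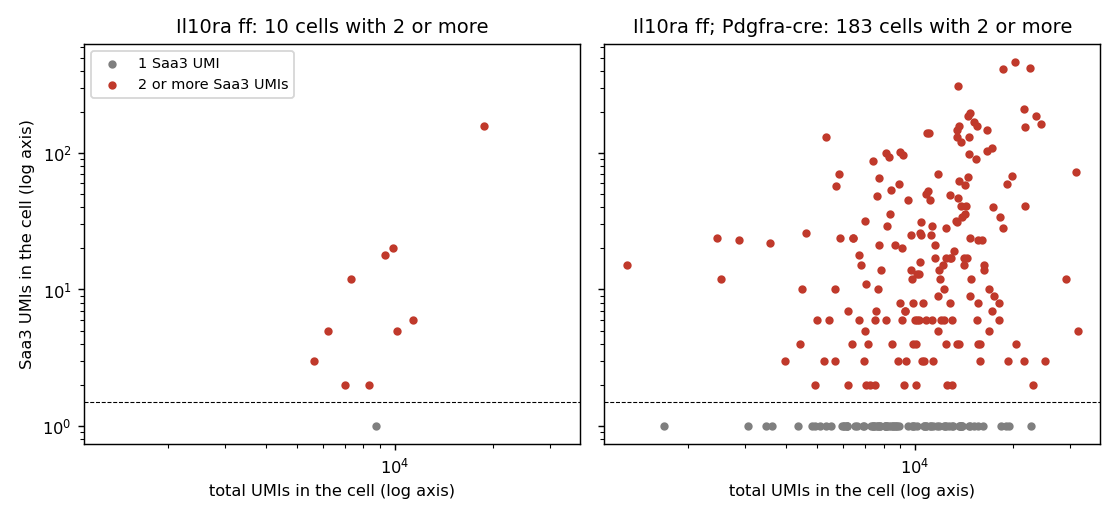
Saa3 UMIs (log axis) against total UMIs (log axis) for every collagen-positive cell with at least 1 Saa3 UMI, in the Il10ra ff library on the left and the Il10ra ff; Pdgfra-cre library on the right. Red cells met the rule of 2 or more UMIs (10 and 183 cells), and the dashed line marks the cutoff; Saa3 reached 157 UMIs in the control library and 463 in the Cre library.

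The cells had a fibroblast profile, which their selection favoured. Both groups compared had to hold at least 10 collagen UMIs and 0 Ptprc UMIs, and both came from the Podoplanin sort. The levels below are therefore a description. All 18 genes of the pan-fibroblast list were measured, at a mean of at least 10 CPM, and all 18 lay within 2-fold of the 5617 collagen-positive Cre cells with 0 Saa3 UMIs. Their median log2 ratio was 0.01, where each log2 ratio has 1 CPM added to both levels. Dcn, which encodes the small proteoglycan decorin, was at 9145 CPM (9019 to 9272) against 12311 in cells without Saa3. Pdpn, the gene of the sorting marker Podoplanin, was at 357 against 246, and Pdgfra at 262 against 363. Il10ra gave 1 UMI in the 183 cells, 3 UMIs in the 5617 Cre cells without Saa3 and 1 UMI in the 9007 control cells without Saa3, so loss of the targeted gene was not detectable at this depth.

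Across all genes, 8938 were measured, of which 150 (1.68%) were at least 2-fold higher and 216 (2.42%) at least 2-fold lower in cells with Saa3. The median log2 ratio over these genes was -0.05. The genes used by the rule were left out of these counts. Cells with Saa3 were deeper, with a median of 11324 UMIs against 8705. With the cells without Saa3 weighted to the same depth distribution, the counts were 150 and 219. With every cell thinned to 2000 UMIs, they were 271 and 585. The 10 highest named genes were Lcn2, Lrg1, Hp, Cxcl9, Cxcl5, Csf3, Serpina3f, Chrdl2, Cxcl2 and Sdc1. Lcn2, Hp and Serpina3f come from the acute phase list, Cxcl5, Csf3 and Cxcl2 from the neutrophil chemokine list and Cxcl9 from the interferon gamma list.

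Acute phase genes were the first group. Of 23 listed, 11 were measured. At least a 2-fold higher level was found for 8 of them and a lower one for 0, where 1.68% of all measured genes were higher. The median log2 ratio was 1.7. Lcn2, whose protein lipocalin-2 binds bacterial siderophores, was at 198 CPM (179.9 to 217) in cells with Saa3, at 2.47 in Cre cells without Saa3 and at 0.128 in control cells without Saa3. The ratio within the Cre library was 80.3-fold (65.8 to 98.7), but Lcn2 UMIs came from only 34 of the 183 cells and 1 cell held 34.6% of them. Without that cell the level was 131 and the ratio 52.9-fold (42.8 to 65.8). These 183 cells held 77.4% of all Lcn2 UMIs of collagen-positive Cre cells, against 4.04% of the UMIs of all genes. Lcn2 also had a UMI in 70.7% of 41 lymphatic endothelial cells of the Cre library and in 44.7% of 38 of the control library, so that it does not mark fibroblasts with Saa3 alone.

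Hp encodes haptoglobin, which binds free haemoglobin. Its level was 316 CPM (293 to 340.0) in cells with Saa3, 18.6 in Cre cells without and 0.585 in control cells without, a ratio of 17-fold (15.4 to 18.8) within the Cre library. It had UMIs in 41 cells (22.4%), against 4.15% of Cre cells and 0.333% of control cells without Saa3. Lrg1, a leucine-rich glycoprotein of the acute phase response, was at 50.9 against 0.932 CPM, but in only 15 cells. Both genes were therefore high in a minority of the cells, and the median cell had 0 UMIs of either.

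Serpina3n, a secreted serine protease inhibitor, was by contrast found in every one of the 183 cells. Its level was 3891 CPM (3809 to 3974), against 1182 in Cre cells and 306 in control cells without Saa3. Per cell it ranged from 63.9 to 18685 CPM with a median of 3299.8. Serpina3f, a member of the same gene cluster, was 8.58-fold higher. The Serpina3 genes are near-identical copies, and reads between them could have been assigned to either. Among the members of the list that stayed within 2-fold were Lbp, whose protein binds lipopolysaccharide, at 238 against 149, and the metallothionein Mt1 at 2863 against 2869.7. Within the Pi16 cells described below, however, Lbp was 2.74-fold higher.

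Neutrophil chemokines were the second group. Of 8 genes listed, 4 were measured, 3 of them higher by 2-fold or more, where 1.68% of all measured genes were. The median log2 ratio was 2.83. Cxcl5, whose protein draws neutrophils through CXCR2, was at 364 CPM (339 to 389.9) in cells with Saa3, 30.3 in Cre cells without and 3.22 in control cells without, a ratio of 12-fold (11 to 13.1) within the Cre library. It had UMIs in 91 of the 183 cells (49.7%), against 9.49% of Cre cells without Saa3. Cxcl2, another CXCR2 ligand, was 5.99-fold (5.54 to 6.48) higher, from 42 cells. Cxcl1, the most abundant of the group, was at 2007 against 1588, 1.26-fold higher. Within the classes described below the ratio was larger. It was 1.77-fold in Adamdec1 cells, 1.35-fold in Pi16 cells, 2.86-fold in cells with both markers and 1.89-fold in cells with neither. Csf3, which encodes the granulocyte growth factor G-CSF, was at 26.8 against 2.27, but came from 8 cells, of which 1 held 42.4% of its UMIs.

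**Figure D2:**
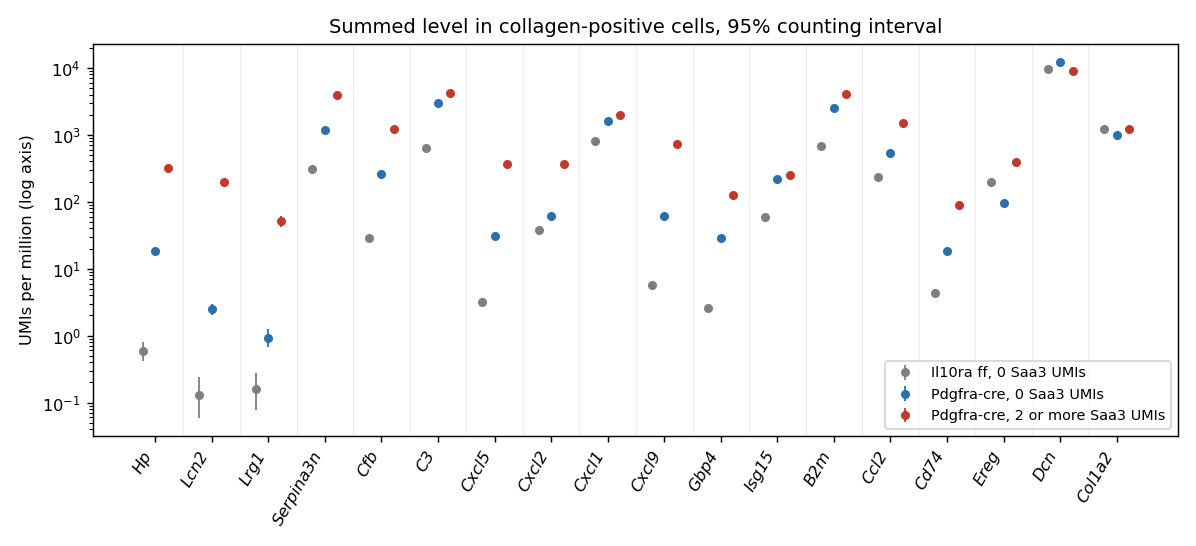
Summed level of named genes (CPM, log axis) in control cells with 0 Saa3 UMIs (grey), Cre cells with 0 Saa3 UMIs (blue) and Cre cells with 2 or more Saa3 UMIs (red), with 95% intervals for counting error. The red points of Hp, Lcn2, Lrg1, Cxcl5 and Cxcl9 lie far above the blue ones, whereas those of Isg15, Dcn and Col1a2 lie close to them.

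Interferon genes differed between the 2 interferon lists. Of 28 interferon gamma genes, 23 were measured, and 12 of these were higher by 2-fold or more (median log2 ratio 1.02). Of 55 type I interferon genes, 44 were measured, and 4 were higher by that much (median 0.41). The share over all measured genes was 1.68%. Cxcl9, whose protein draws T cells through CXCR3, was at 729.8 CPM (695 to 766) against 60.8 in Cre cells and 5.66 in control cells without Saa3, and had UMIs in 83 of the 183 cells. Gbp4 and Gbp5, guanylate-binding proteins of cell-autonomous defence, were 4.29-fold and 3.95-fold higher. Irf1 was at 609 against 605 and Irgm1, an immunity-related GTPase, at 191 against 157. In the type I list, Phf11b and Zbp1, a sensor of left-handed nucleic acid, were 3.61-fold and 2.25-fold higher, and Isg15, a ubiquitin-like protein, was at 251 against 222. Ifit2, which binds foreign RNA, was at 12.3 against 21.

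Cre cells without Saa3 already differed from control cells without Saa3 in these genes. Over all 9096 genes measured in that comparison, 1.89% were at least 2-fold higher and 1.32% at least 2-fold lower in the Cre library. Of the type I list, 24 of the 42 measured were higher by 2-fold or more, the median log2 ratio being 1.17, and of the interferon gamma list 18 of 21, the median being 2.11. Of the 8 acute phase genes measured, 6 were higher, the median being 2.13. For all 3 lists the median between libraries was above that between cells with and without Saa3, but the medians cover different genes. Between cells with and without Saa3, 44 type I, 23 interferon gamma and 11 acute phase genes were measured. Hp and Lcn2 were among the latter but fell below the minimum of 10 CPM between libraries. The 2 comparisons share the Cre cells without Saa3 and are given side by side only.

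Antigen presentation genes were higher along with the interferon gamma genes. All 18 measured MHC class I genes had a log2 ratio above 0, from 0.46 to 1.29. At least 2-fold higher were 4 of them, where 1.68% of all measured genes were. B2m, which encodes beta-2 microglobulin, was at 4104 against 2491 in Cre cells and 678 in control cells without Saa3. H2-Q7, a non-classical class I gene, was 2.46-fold higher, and Psmb8 and Psmb9, subunits of the immunoproteasome, 2.16-fold and 2.14-fold. Class II genes were far lower in level, and 5 of 6 measured were at least 2-fold higher. Cd74, the invariant chain, was at 89.5 against 18.7 and came from 36 of the 183 cells. The macrophage list summed to 27.2 CPM in cells with Saa3 and 22.8 without. With every cell holding a UMI of the leukocyte genes Tyrobp, Fcer1g, C1qa, C1qb, C1qc, Csf1r, Adgre1, Cd3e, Cd3d, Cd79a or Ms4a1 left out, the log2 ratio of Cd74 was 2.57, against 2.2 with them.

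Further secreted mediators were higher in these cells. Over all measured genes, 1.68% were at least 2-fold higher. Of 7 other chemokines measured, 4 were at least 2-fold higher, among them the monocyte chemokines Ccl2 at 1496 against 529 and Ccl7 at 1233 against 530.0. Cxcl12, which retains leukocytes and progenitors through CXCR4, was at 2585 against 1360.0, and the eotaxin Ccl11 at 545 against 595. Of 9 complement genes, 1 was at least 2-fold higher: Cfb, factor B of the alternative pathway, at 1204 CPM (1158 to 1250.2) against 259.8 and 29.2. C3 was at 4221 against 2979 and 629.7. Ereg, the EGF receptor ligand epiregulin, was at 399 against 94.7, a level of 195 having been found in control cells. Wnt4 was at 170.3, 65 and 168 in the same order, and Sdc1, the heparan sulfate proteoglycan syndecan-1, at 111, 18.4 and 33.4. For these 3 genes Cre cells without Saa3 lay below control cells, unlike the acute phase genes. Chrdl2, which encodes a BMP antagonist, was 7.47-fold higher, from 13 cells.

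Genes of the upstream pathways were read from lists of receptors, adaptors and transcription factors. Of 13 measured receptor and adaptor genes for IL-1, TNF and IL-17, 0 were at least 2-fold higher or lower. Il1r1, the signalling IL-1 receptor, was at 123 against 69.5 CPM, Tnfrsf1a at 261 against 215, Il17ra at 16.8 against 16.8 and Tlr4, the lipopolysaccharide receptor, at 23.6 against 44. Of 12 STAT3 and C/EBP genes, 0 passed 2-fold in either direction. Socs3, a feedback inhibitor induced by STAT3, was at 373 against 595, Cebpd at 1381 against 1588 and Il6 at 173 against 120.3. Of 19 NF-kappaB genes, 4 were at least 2-fold higher, including Sod2, the mitochondrial superoxide dismutase, at 459.6 against 159 and the adhesion molecule Vcam1 at 411 against 164. The feedback inhibitor Nfkbia was at 1361 against 1162. For 13 and 12 genes, counts of 0 are near the background of 1.68% higher and 2.42% lower. Within the Pi16 cells described below, the log2 ratio of Il1r1 was 2.01, and within the Adamdec1 cells -0.09. In Pi16 cells, 1 of 10 receptor genes, 2 of 12 STAT3 and C/EBP genes and 2 of 19 NF-kappaB genes passed 2-fold upward, where 2.97% of all measured genes did. In Adamdec1 cells 1 of 13, 1 of 12 and 3 of 19 did, where 1.01% of all measured genes did. Of the 5 measured genes of the IL-10 and interferon receptor list, 0 passed 2-fold: Il10rb was at 78.6 against 53.6 and Ifngr1 at 226 against 154. Of 17 dissociation stress genes and 12 hypoxia and glycolysis genes, 0 passed 2-fold, with medians of -0.38 and 0.23. For lists of 5, 17 and 12 genes, counts of 0 are again near the background shares.

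**Figure D3:**
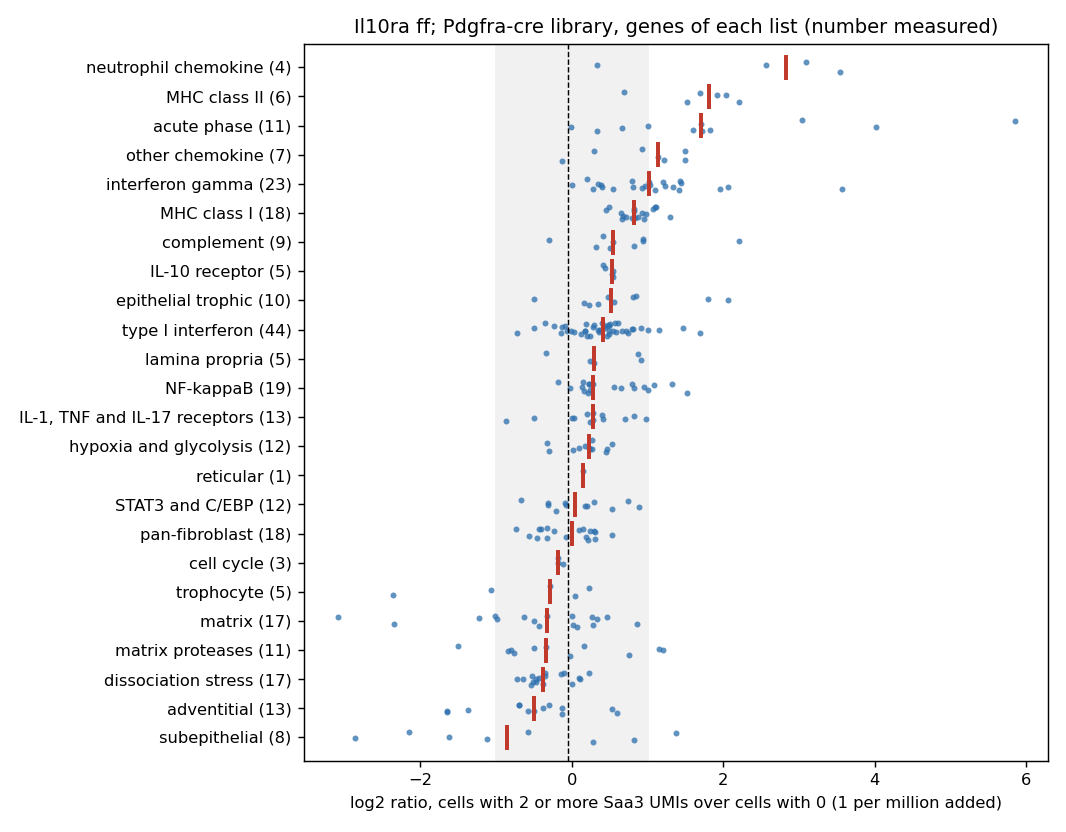
Log2 ratio of each measured gene (blue points), cells with 2 or more Saa3 UMIs over cells with 0 in the Cre library, by gene list with the number measured in parentheses. Red bars are list medians, the dashed line is the median of all genes (-0.05), and the grey band spans 2-fold in either direction; the neutrophil chemokine, MHC class II and acute phase medians (2.83, 1.81 and 1.7) are the 3 highest.

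Genes lower in the cells came from several fibroblast programmes. Over all 8938 measured genes, 2.42% were at least 2-fold lower and 1.68% at least 2-fold higher. Of 8 subepithelial genes, 4 were lower by 2-fold or more and 1 was higher (median log2 ratio -0.85). Sox6, a transcription factor of subepithelial fibroblasts, was at 11.4 against 88.8 CPM, F3, which encodes tissue factor, at 33.2 against 150.3, and Bmp3 at 6.81 against 23. The member of this list that was higher was Wnt4. Within the classes described below Wnt4 did not pass 2-fold. It was 1.56-fold (1.39 to 1.74) higher in Adamdec1 cells and at 1.9 against 2.37 CPM in Pi16 cells. The direction of the list median turned under 2 alternatives: it was 0.22 with cells holding 5 or more smooth muscle UMIs left out, and 0.21 with the cells without Saa3 weighted to the same mix of fibroblast marker strata. Bmp3 was then within 2-fold, at log2 ratios of -0.51 and -0.2. Of 5 trophocyte genes, 2 were lower, the chemokine-scavenging receptor Ackr4 at 20.4 against 109 and Cd81 at 190.3 against 398. The R-spondin gene Rspo3 was at 59.9 against 58.2 and the BMP antagonist Grem1 at 462 against 394. Within the classes described below, 0 of 3 trophocyte genes were lower among Adamdec1 cells (median -0.08). Among Pi16 cells, 1 of 5 was lower and 1 higher (median 0.53). Of 13 adventitial genes, 3 were lower, namely Pcolce2 (3.16-fold), Igfbp6 (3.13-fold) and Mfap5 (2.6-fold). This depended on the class of cell described below. Among Adamdec1 cells, 0 of 12 adventitial genes were lower and 2 were higher (median -0.03), where 2.49% of all measured genes were lower. Among Pi16 cells, 4 of 14 were lower and 0 higher (median -0.61), where 6.06% of all measured genes were lower. Of 17 matrix genes, 4 were lower, with Thbs2 at 15.9 against 142 and tenascin C (Tnc) at 30 against 156. Thbs2 encodes a matricellular protein of the thrombospondin family.

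The 10 lowest named genes were Myh11, Wif1, Pde1c, Actg2, Pxdc1, Tagln, Thbs2, Hhip, Fgf9 and Sox6. Myh11, Actg2 and Tagln are contractile genes of smooth muscle, and the smooth muscle list summed to 142 CPM in cells with Saa3 and 502 without. With cells holding 5 or more UMIs of that list left out, the log2 ratio of Myh11 went from -5.32 to -0.67, and that of Tagln from -3.21 to -1.36. Sox6 then stood at -1.51 instead of -2.86. Thbs2 (-3.01), Pxdc1 (-3.43) and Fgf9 (-2.7) remained lower by more than 2-fold, as did Wif1 (-2.13) and Hhip (-1.51), whereas Actg2 was near 0. Wif1, which encodes a secreted Wnt inhibitor, had 0 UMIs in the 183 cells against 22.3 CPM without Saa3, at least 16.4-fold lower against a floor of 3 UMIs over the group. Within the Pi16 cells described below, Wif1 and Hhip were inside 2-fold, at log2 ratios of -0.35 and -0.85. The gene Pde1c had 1 UMI, for a ratio of 0.017 (0.00043 to 0.0948).

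The cells belonged to more than 1 fibroblast class. The classes were set with 2 genes, at 2 or more UMIs each, after the values had been seen. Of the 183 cells, 119 had Adamdec1 without Pi16, 38 had Pi16 without Adamdec1, 5 had both and 21 had neither. Saa3 cells were 5.09% of the 2339 collagen-positive Adamdec1 cells of the Cre library (4.23 to 6.06%), 2.10% of the 1807 Pi16 cells (1.49 to 2.88%), 4.17% of the 120 cells with both (1.37 to 9.46%) and 1.30% of the 1611 cells with neither (0.809 to 1.99%). Depth did not follow this order, since median UMIs were 8109 in the Adamdec1 cells and 10055 in the Pi16 cells. By other single genes at 2 or more UMIs, the share was 9.6% of 865 cells with Ereg and 9.03% of 864 with Wnt4, but 0.523% of 1147 with Ackr4 and 0.907% of 441 with Sox6. Of the 332 cells with 2 or more Cxcl9 UMIs, 21.4% had Saa3 (17.1 to 26.2%). A grouping by whole marker lists gave each cell to the list with the most UMIs. It put 176 of the 183 cells in the adventitial and trophocyte group, 7 in lamina propria and 0 in subepithelial. Saa3 shares of the first 2 groups were 3.42% (2.94 to 3.95%) and 1.63% (0.657 to 3.33%), opposite in order to Adamdec1 over Pi16. The first group also held 87.3% of Cre cells without Saa3, so this grouping separated few cells.

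Acute phase genes and Cxcl5 were higher with Saa3 in both classes. Among Adamdec1 cells, 6 of the 11 acute phase genes measured passed 2-fold upward (median log2 ratio 1.13), where 1.01% of 9189 measured genes were higher. Among Pi16 cells, 10 of 12 did (median 1.87), where 2.97% of 8217 genes were higher. The shares of genes lower were 2.49% and 6.06%. Lcn2 was at 96.5 against 1.03 CPM in Adamdec1 cells and 230.3 against 2.76 in Pi16 cells. Cxcl5 was 6.65-fold (6.00 to 7.35) higher in the first class and 24.8-fold (19.9 to 30.8) in the second. Cfb was 5.44-fold (5.11 to 5.78) higher in Adamdec1 cells and 4.55-fold (4.23 to 4.89) in Pi16 cells. Serpina3n was at 3551 against 1896 in Adamdec1 cells and 5064 against 774 in Pi16 cells.

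Hp and its companions differed in level between the classes, and Lbp also in ratio. The Hp ratios overlapped, at 36.2-fold (32.2 to 40.7) in Pi16 cells and 23.5-fold (13.9 to 40.6) in Adamdec1 cells. Lbp was 2.74-fold (2.47 to 3.03) and 1.59-fold (1.17 to 2.11) higher. Csf3 was 49.9-fold (32.0 to 78.5) higher in Pi16 cells. Its ratio in Adamdec1 cells was 3.36 (0.0682 to 33.9), from 1 UMI against 4, and the intervals overlapped. Hp reached 1125 CPM in Pi16 cells with Saa3, from 20 of 38 cells, and 30.5 in Adamdec1 cells with Saa3, from 10 of 119. Cells without Saa3 showed the same order, at 31.1 and 1.3. Lrg1 was at 181 and 7.98 in cells with Saa3, and Lbp at 761 and 39.2. Csf3 was at 99, from 6 Pi16 cells, and at 0.726, from 1 Adamdec1 cell. In the 21 cells with neither marker, Lcn2 was at 899.9 and Cxcl2 at 1155, from 7 and 7 cells. Of these UMIs, 151 of 180 and 134 of 231 came from 1 cell, and without it the levels were 159.9 and 535. Serpina3f had the opposite order to Hp in Pi16 and Adamdec1 cells with Saa3, at 19 and 225.

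The interferon lists and MHC class I had higher medians with Saa3 among Adamdec1 cells than among Pi16 cells, while MHC class II had genes past 2-fold in both. In Adamdec1 cells, 11 of 23 interferon gamma genes, 7 of 46 type I interferon genes and 2 of 18 MHC class I genes passed 2-fold upward, the medians being 0.94, 0.55 and 0.78. In Pi16 cells, 0 of 22, 0 of 43 and 0 of 18 did, the medians being 0.03, 0.04 and 0.21, and 2 type I genes were at least 2-fold lower. Over all measured genes, 1.01% were higher in Adamdec1 cells, and 2.97% were higher and 6.06% lower in Pi16 cells. For lists of this size, the Pi16 counts are near those shares. Of the MHC class II genes, 5 of 6 passed 2-fold upward in Adamdec1 cells (median 1.91) and 2 of 4 in Pi16 cells (median 1.06). Cxcl9 was at 1071 against 129.8 in Adamdec1 cells, in 74 of 119 cells with Saa3, and at 1.9 against 10.6 in Pi16 cells, in 1 of 38. Cxcl10, another CXCR3 ligand, was at 1274 against 461 in the first class and 232 against 458 in the second. B2m was 1.66-fold (1.62 to 1.7) higher among Adamdec1 cells and 1.02-fold (0.969 to 1.08) among Pi16 cells. Isg15 was at 224 against 133 and at 293 against 296. The direction also turned for other named genes. In Pi16 cells the log2 ratios of Cd74, Gbp4, Wnt4 and Pde1c were -0.42, -0.05, -0.22 and 0.32. The first 3 rest on 4, 8 and 1 UMIs in the cells with Saa3. In Adamdec1 cells that of Chrdl2 was -0.11 and that of Cd81 was close to 0. With 1 library, the difference between the classes has no replicate check, and the 38 Pi16 cells come from at most 2 mice.

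**Figure D4:**
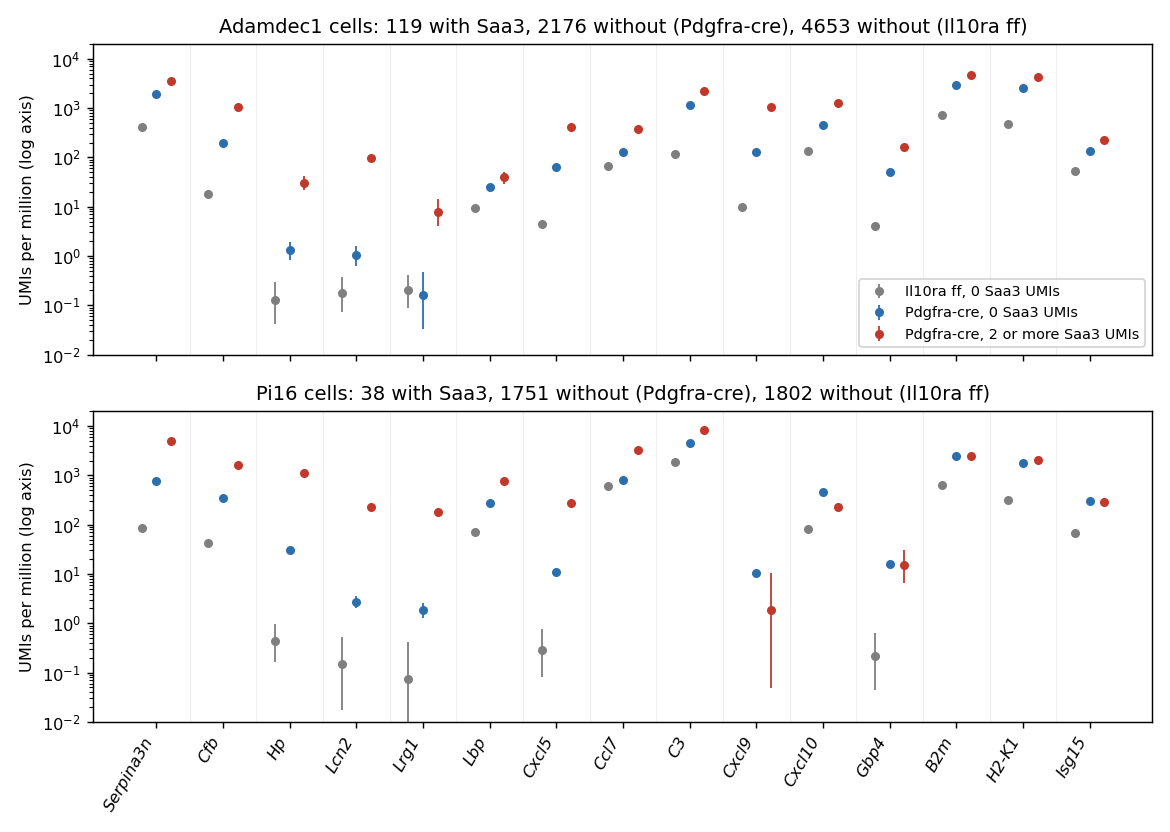
Summed level (CPM, log axis, 95% intervals for counting error) in Adamdec1 cells (top) and Pi16 cells (bottom), for control cells with 0 Saa3 UMIs (grey), Cre cells with 0 (blue) and Cre cells with 2 or more (red); levels of 0 are not drawn. The red points lie above the blue ones for acute phase genes and Cxcl5 in both panels, and for Cxcl9, Gbp4, B2m and H2-K1 in the top panel, whereas in the bottom panel they overlap, lie close to or fall below them.

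The same division appeared cell by cell. Hp and Cxcl9 were found together in 7 of the 183 cells, Hp alone in 34, Cxcl9 alone in 76 and neither in 66. Of the 34, 20 were Pi16 cells and 4 Adamdec1 cells, and of the 76, 68 were Adamdec1 cells and 1 was a Pi16 cell. Saa3 was present in both subsets because the rule chose the cells by it. Its medians were 24 UMIs per cell in the 34 and 15.5 in the 76, against 15 in the 66 with neither gene. Ranges were 3 to 463 in the 34 and 2 to 309 in the 76. Median depths were 13767.5, 10713.5 and 10634.5 UMIs in the 34, 76 and 66 cells. Setting the summed levels side by side, the 8 genes with the highest ratio in the Hp cells included Ptx3, Pi16, Lrg1, Lbp, Abi1, Penk and Lrrn4cl. Ptx3, the long pentraxin of innate defence, was at 588 CPM in Hp cells and had 0 UMIs in Cxcl9 cells. The 8 at the other end were Igfbp3, Dach1, Gbp4, Adamdec1, AW112010, Hpse, Lepr and Syn3. Igfbp3, an IGF-binding protein, had 0 UMIs in Hp cells and was at 448 in Cxcl9 cells, and Adamdec1 was at 187 and 1859. Il6 was at 378 and 80.7, Ccl7 at 3122 and 448, and C3 at 8234 and 2363. Cxcl5 was similar, at 329 and 471, in 61.8% and 53.9% of cells. The subsets were chosen on these counts after they had been seen, so these values are a description.

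**Figure D5:**
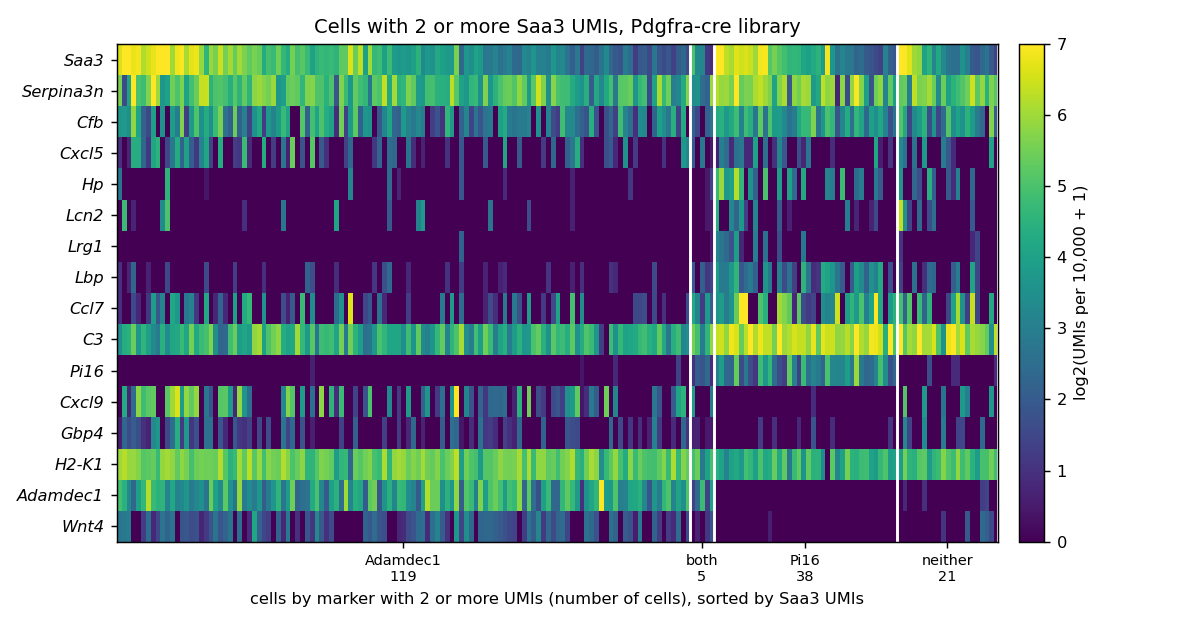
Each column is 1 of the 183 Cre cells with Saa3, grouped by Adamdec1 and Pi16 (119 with Adamdec1, 5 with both, 38 with Pi16, 21 with neither) and sorted by Saa3 UMIs within each group; each row is a gene, and colour gives UMIs on a log2 scale after scaling to a common depth. Serpina3n and Cfb are found across the groups, Hp, Lrg1, Lbp and C3 are highest in the Pi16 and neither groups, and Cxcl9 and H2-K1 are highest in the Adamdec1 group.

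Some companion genes rose at each step of Saa3 UMIs, and others did not. In cells with 0, 2 to 4, 5 to 19 and 20 or more Saa3 UMIs (5617, 35, 65 and 83 cells), Serpina3n was at 1182, 2951, 3289.8 and 4667 CPM. Hp was at 18.6, 78.8, 121 and 542, and Lcn2 at 2.47, 28, 71.9 and 351. Cxcl9 was at 60.8, 247, 436 and 1118. Isg15 was at 222, 236, 249 and 257, nearly level. Cxcl5, Cxcl2, Ccl2, Ereg and Cfb were lower at 5 to 19 than at 2 to 4 Saa3 UMIs. Over the same 4 steps Cxcl5 was at 30.3, 211, 176 and 554, and Cxcl2 at 60.8, 277, 104 and 581. Ccl2 was at 529, 1663, 1081.5 and 1727, Ereg at 94.7, 539, 301 and 416, and Cfb at 259.8, 902, 834 and 1578. Median depth went up along the same steps, from 8705 to 10059, 11285 and 13371 UMIs. The 77 cells with 1 Saa3 UMI had Serpina3n at 1928, Cxcl5 at 139 and Hp at 8.02.

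With every cell thinned to 2000 UMIs, which kept 182 cells with Saa3, 5590 Cre cells without and 8900 control cells without, the shares of cells with a UMI kept the same order. Hp had a UMI in 14.8% of cells with Saa3, 1.65% of Cre cells without and 0.101% of control cells without. The shares were 12.6%, 0.215% and 0.0112% for Lcn2, 26.4%, 3.4% and 0.483% for Cxcl5 and 32.4%, 3.7% and 0.348% for Cxcl9. Isg15 was closer, at 28%, 22.5% and 8.1%. Before thinning, the shares for Hp had been 22.4%, 4.15% and 0.333%. At least 2 of the 4 genes Hp, Lcn2, Cxcl5 and Cxcl9 were detected in 81 of the 183 cells (44.3%), in 168 of 5617 Cre cells without Saa3 (2.99%) and in 4 of 9007 control cells without Saa3 (0.0444%). Cells with this profile therefore also occurred without a Saa3 UMI, and by number those of the Cre library exceeded those with Saa3.

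The 10 cells of the control library were few but not uniform. They held 2, 2, 3, 5, 5, 6, 12, 18, 20 and 157 Saa3 UMIs. Of them, 8 were Adamdec1 cells, 1 had both markers, 1 had neither and 0 were Pi16 cells, while 0 of 1802 control Pi16 cells had Saa3, with an exact binomial upper bound of 0.205%. Hp and Lcn2 had 0 UMIs in all 10, which allows up to 31.9 CPM. In Cre cells with Saa3 and Adamdec1, the class of most of the 10, Hp was at 30.5, below that limit, and Lcn2 at 96.5, from 13 of 119 cells. Cxcl5 had 8 UMIs, all in the cell with 157 Saa3 UMIs. Cxcl9 had 48 UMIs in 2 cells, or 510.5 CPM against 5.66 in control cells without Saa3. Serpina3n was at 1457 against 306, from 7 of the 10 cells, and Ccl2 at 3276 against 236, from 4. Cfb was at 21.3 (2.58 to 76.8) against 29.2, and Isg15 at 31.9 (6.58 to 93.2) against 58.7.

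Markers of other cell types were low in the 183 cells. The neutrophil list summed to 4 UMIs and the T cell list to 4 UMIs over all 183 cells, with 4 of 7 and 3 of 5 markers at 0. The glial, lymphatic endothelial and epithelial lists held 5, 5 and 7 UMIs, each with 4 markers at 0. The erythrocyte list was at 2.72 CPM against 135 in Cre cells without Saa3 and 0.499 in control cells, and the mesothelium list at 5.9 against 52.8. With cells holding a haemoglobin UMI left out, the acute phase median was 1.69 and the interferon gamma median 0.98. In the blood endothelium list, Plvap was at 61.3 against 19.3, while the defining gene Cdh5 had 0 UMIs. Doublet calls took 3 of the 183 cells (1.64%) and 98 of the 5617 (1.74%). The libraries shared 115 barcodes out of 11380 and 8627.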

How the data were processed

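Stromal cells of the mouse colon were profiled by droplet single-cell RNA sequencing, with 1 library per genotype. As deposited, each matrix gives whole-number UMI counts for every gene and barcode, with no scaling. Cell Ranger 8.0.1 and build GRCm39 are named in the submitters' processing notes. Gene symbols and barcodes were used as deposited. Both libraries had 33696 features, and 26 rows repeated a symbol, of which the first row was used. Per-sample columns left unused numbered 0. RefSeq promoters were of another build and were matched by symbol only.

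Counts were summed over groups of cells with Python 3.11.15, numpy 2.4.6, scipy 1.17.1 and pandas 2.3.3, scaled to CPM, and compared as log2 ratios with 1 CPM added, for genes whose mean reached 10 CPM. Levels have exact Poisson intervals, ratios and shares exact binomial (Clopper-Pearson) intervals, at 95%. UMIs remove most PCR copies, but intervals and floors of 3 UMIs cover counting error only. With 1 library per genotype no test was run, and cells were not used as replicates. Il10ra ff kept 11050 barcodes with a median of 6633 UMIs, and the Cre library 8413 with a median of 7457. Scrublet (scanpy 1.11.5, expected rate 8%) called doublets, which were kept, and leaving them out was an alternative. The summed comparison was tested on simulated data.

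The rule, the lists and the named genes were chosen with earlier results of these data known. Named genes were those of the rule, the 10 highest and 10 lowest ratios among genes reaching 20 CPM in either group and 50 UMIs over both, leaving out predicted, mitochondrial, ribosomal, antigen receptor, haemoglobin and sex-linked genes, and of each list the 3 highest, 3 lowest and 2 most abundant. The list of other cell types was read as summed levels. The Adamdec1 and Pi16 classes, the Hp and Cxcl9 subsets and 6 of 22 alternatives were added after the data were seen. The 8 genes at each end between the subsets had at least 50 UMIs and were found in at least 25% of 1 subset, with 10 CPM added. Some genes are not reported here, although list counts and medians include them.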

Additional observations from a re-analysis of the deposited data

Results flagged for a closer look

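Cells outside the collagen rule also held Saa3. In the Cre library, 13 of 2534 kept cells with under 10 collagen UMIs had at least 2 Saa3 UMIs (0.513%, 0.273 to 0.876%), against 1 of 2028 in the control library (0.0493%). These cells enter none of the comparisons above. The control share had an interval of 0.00125 to 0.274%, which touched that of the Cre library. Kept cells with under 10 collagen UMIs had a median of 4429 UMIs in the Cre library and 2260.5 in the control library. The cutoff of 2 Saa3 UMIs was therefore harder to reach in the control library, and the shares are given side by side only. All 13 had at least 1 collagen UMI and at least 5 UMIs of the pan-fibroblast list. They were shallower than the collagen-positive cells with Saa3, with a median of 5471 UMIs against 11324.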

How the results depend on the processing

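No paired analysis was possible because each genotype gave 1 library. Of the 22 alternatives, 20 give list medians, and under all 20 the medians of the acute phase, neutrophil chemokine, interferon gamma and type I interferon lists stayed above 0. With 10 CPM added, 93 genes were higher and 116 lower by 2-fold, and the acute phase and neutrophil chemokine medians were 1.484 and 1.993. With cells thinned to 2000 UMIs, 271 genes were higher and 585 lower, with an acute phase median of 1.478. A minimum of 50 CPM gave 74 and 65 genes, and no minimum gave 300 and 853, because fewer or more genes were counted. The neutrophil chemokine median was 2.74 with each cell weighted alike, 2.658 with cells weighted to depth deciles and 2.757 with cells weighted to marker strata, where the pan-fibroblast median under depth deciles was -0.06374. Under the marker strata the subepithelial median went from -0.8477 to 0.2092, and with cells holding 5 or more smooth muscle UMIs left out to 0.2164. With the cell with the most Lcn2 UMIs left out, the neutrophil chemokine median was 2.706.

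With Saa3 from 1 UMI, the share of Saa3 cells in the Cre library was 4.424%, 131 genes were lower, and the acute phase, neutrophil chemokine and interferon gamma medians were 1.439, 2.584 and 0.8531. From 5 UMIs the share was 2.518% and the acute phase median 1.792. With collagen from 5 UMIs the share was 2.67%. From 30 UMIs it was 5.312%, and the pan-fibroblast and interferon gamma medians were -0.1515 and 0.8106.

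Within the Adamdec1 cells, 93 genes were higher, the acute phase and neutrophil chemokine medians were 1.132 and 2.571, and the log2 ratios of Cd81 and Chrdl2 were 0.0005212 and -0.1114, opposite in sign to those over all cells. Within the Pi16 cells, 244 genes were higher and 498 lower, and the pan-fibroblast, acute phase, type I interferon and interferon gamma medians were 0.1044, 1.866, 0.04244 and 0.0321. The log2 ratios there were -0.4207 for Cd74, -0.9776 for Cxcl10, -2.003 for Cxcl9, -0.05197 for Gbp4, 0.3217 for Pde1c and -0.2153 for Wnt4, again opposite in sign. The cause was not tested. Depth limits the rarer genes: 0 UMIs over the 183 cells allows up to 1.36 CPM.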
